A study of Rana pirica with 14 samples.

Results

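The genes described here encode the translation factors and the aminoacyl-tRNA synthetases, chosen by symbol alone from the annotation of the Xenopus laevis genome array: initiation factors (eif), elongation factors (eef), the release factors etf1 and gspt1, the cytoplasmic poly(A)-binding proteins and the synthetases. The rule gave 123 probe sets, with 88 symbols and 73 genes once the suffixes .L and .S, for the copies of a gene on the paired Xenopus laevis chromosomes, were dropped, of 9304 probe sets with 1 symbol and 15491 tested. A further 5 probe sets carry such a symbol together with a second one and were not counted. The rule itself uses no measured value, but it was set with earlier results of these data known. In all, 61 of the 123 carry an eif symbol, eIF5A, eIF6 and the exon junction protein eif4a3 included, and 37 belong to 21 synthetase genes.

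Tail tissue of Rana pirica tadpoles was hybridized to arrays designed for Xenopus laevis. The animals grew from eggs of a wild pond, had not yet grown hind limbs and were all sampled on day 8. Those of Cont (n = 2 arrays) met no predator. Those of Drago (n = 3) and Salam (n = 3) spent the 8 days with dragonfly larvae or larval salamanders. Those of −Drago and −Salam (n = 3 in both) spent 4 days with the same predators and the last 4 days without them. Per the paper, the dragonfly larvae were caged and harmed no tadpole, while the larval salamanders bit some tadpoles and killed a few. Predator species and injury therefore cannot be told apart between Drago and Salam. Per the labels the replicates are biological, but the methods pool the tissue of a treatment, so the p-values measure the spread between arrays, which may be technical.

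Initiation factors load the initiator tRNA and the messenger RNA onto the small ribosomal subunit, elongation factors bring in each charged tRNA and move the ribosome on, and release factors end the chain at a stop codon. Aminoacyl-tRNA synthetases attach each amino acid to its tRNA. Cells under stress slow initiation mainly through eIF2, the carrier of the initiator tRNA, and through the proteins that hold the cap-binding factor eIF4E.

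Each value below is a MAS5 signal on the log2 scale minus the median of that probe set over the 14 arrays, as the authors deposited it, so 0 marks the middle of the 14 arrays and levels cannot be compared between genes. Differences are between group means on that log2 scale, with the standard error (SE) and the p of limma, adjusted by Benjamini-Hochberg over all 15491 probe sets. The array medians lay between -0.00494 and 0.00677. Over all probe sets, the 13 pairs of arrays of the same group correlated at r from -0.0187 to 0.00998, and the 78 pairs from different groups at -0.0270 to 0.0127. The added control transcript dap was high on 6 arrays (3.0 to 4.17) and low on 8 (-2.41 to -0.61), with 2 high and 1 low in both Drago and Salam, 1 of each in Cont, and 1, respectively 0, high arrays in −Salam and −Drago. A marker list cannot show that a tissue is present on this scale. Fewer cells of a type and less RNA per cell cannot be told apart in whole tails.

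Between Drago and Salam, kars1, eif5a and eif2b3 were over 5 fold higher in Drago on 1 probe set of each gene. On 1 probe set of each, eif3i, eif3a and gars1 were lower in Drago at an unadjusted p of limma under 0.05. No translation probe set passed an adjusted p of 0.05. The smallest adjusted p among the 123 was 0.530. Over all probe sets tested 0.00646% were called in this comparison, a single probe set that is not one of the 123. At an unadjusted p under 0.05, 10 of the 123 stood out (8.13%, 7 higher and 3 lower in Drago), beside 5.71% of all probe sets. The count was 6 (4.88%, beside 5.45% of all) without Salam replicate 2 and 6 (4.88%, beside 5.59%) with only the arrays compared. An ordinary t test on those same arrays gave 12 (9.76%, beside 4.89%). The 3 probe sets over 5 fold, all higher in Drago, compare with 1.15% of all.

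Differences lay on both sides of 0. The median difference over the 123 was -0.07, with 57 probe sets above 0 and 66 below, and that of all probe sets was 0.00 (-0.00188). The quartiles of the 123 were -0.54 and 0.42, and the median SE was 0.70. The 3 Drago arrays did not overlap the 3 Salam arrays for 21 probe sets of 18 genes (17.1%), 13 with Drago higher and 8 with Drago lower, beside 10.3% of all probe sets. Of the 21, 12 did not reach an unadjusted p under 0.05 and the gaps between the groups ran from 0.00656 to 2.82. The 2 probe sets of eif3c.S are among them, on opposite sides (0.74 and -0.39), and 3 of the 21 are of gars1, so these values are not independent. The interval of the difference (95%, limma) spanned 0 for 113 of the 123. It reached past 1 log2 unit on at least 1 side for all 123. Since limma draws each variance toward that of all probe sets, even the narrowest interval was 1.96 units wide. An interval of that width can hardly lie within 2 fold either way, so this count cannot show whether any of the 123 differed by less.

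**Figure D1:**
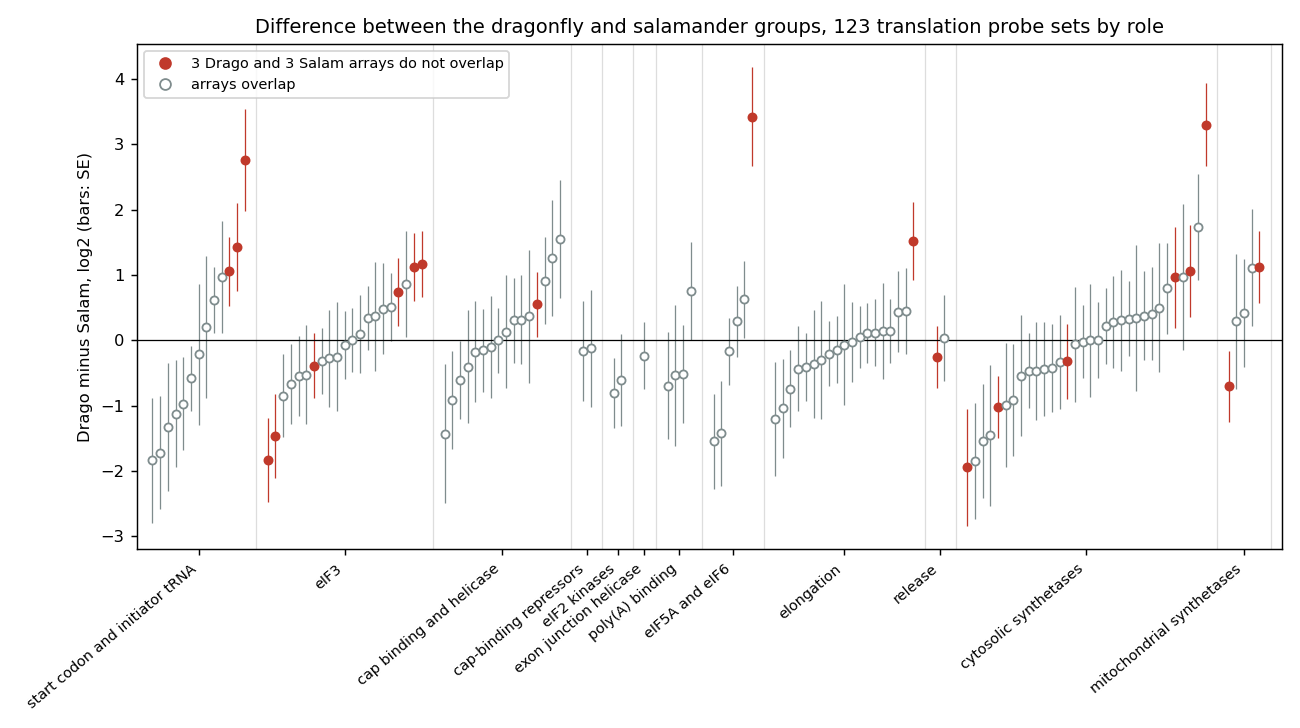
Difference between the mean of 3 Drago arrays and the mean of 3 Salam arrays for each of the 123 translation probe sets, on the log2 scale, grouped by role on the horizontal axis. Bars are the SE of limma, and filled points are the 21 probe sets whose arrays do not overlap. Most points lie within 1 unit of 0, and the 3 highest are eif5a.L, kars1.L and eif2b3.L.

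The class of factors that choose the start codon and handle the initiator tRNA was also set by symbol alone, with eif1ad.L included. Among its 13 probe sets of 10 genes, 6 differences were above 0 and 7 below, with a median of -0.22. The largest was that of eif2b3.L, the gamma subunit of eIF2B, the exchange factor that recharges eIF2. It was at 0.75, 1.85 and 1.66 on the Drago arrays, at -0.45, -1.20 and -2.37 on the Salam arrays, and at -1.80 and -0.82 in Cont. All Drago arrays lay above all Salam and Cont arrays. The difference was 2.76 (SE 0.78, unadjusted p = 0.00309, limma adjusted p = 0.671), or 6.77 fold. Of the other eIF2B subunits measured, eif2b2.L (beta) differed by 1.06 (SE 0.53) and eif2b4.L (delta) by -1.84 (SE 0.96), with neither past an unadjusted p of 0.05. The arrays of eif2b2.L did not overlap between the groups, while those of eif2b4.L did.

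The subunits of eIF2 itself gave differences of -0.58 (SE 0.50) for eif2s1.S (alpha, the subunit phosphorylated under stress), -1.72 (SE 0.87) for eif2s2.S and 0.21 (SE 1.09) for eif2s2.L (beta), and 0.97 (SE 0.86) for eif2s3.S (gamma). None reached an unadjusted p under 0.05. The factor eif5.S, which triggers GTP hydrolysis by eIF2 at the start codon, was at 0.36, 1.37 and 0.34 in Drago and at -0.80, -0.73 and -0.68 in Salam on probe set Xl.11588.1.S2_at. These arrays did not overlap, and the difference was 1.43 (SE 0.68, adjusted p = 0.871). A second probe set of eif5.S lay the other way, at -1.33 (SE 0.98).

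eIF3 is the large complex that joins the small ribosomal subunit to the messenger RNA, and 21 probe sets read 11 of its subunits. The differences were above 0 for 10 and below for 11, with a median of -0.07, and 4 of the 21, with 2 on each side, passed an unadjusted p of 0.05, which 5.71% of all probe sets did. The subunit eif3i.L was at -0.91, -0.72 and -1.24 in Drago and at 0.06, 1.40 and 1.16 in Salam. The Cont arrays, at -0.79 and -1.10, fell in the range of Drago and below Salam. The difference was -1.83 (SE 0.65, adjusted p = 0.786).

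The scaffold subunit eif3a.S (Xl.24093.1.A1_at) was at -1.02, -0.24 and -0.10 in Drago and at 0.24, 0.50 and 2.32 in Salam. The Cont values of 0.16 and 0.10 lay between the groups and the highest was that of Salam replicate 3. The difference was -1.47 (SE 0.65, adjusted p = 0.865), and -0.82 without that array. On the peripheral subunit eif3l.L, Drago was at 0.59, 0.57 and -0.23 and Salam at -0.94, -1.31 and -0.32, a difference of 1.17 (SE 0.51, adjusted p = 0.865) with arrays that came within 0.0901 of each other. The subunit eif3m.S (Xl.6060.2.A1_x_at) was at 0.14, 0.49 and 0.46 in Drago and at -0.04, -1.01 and -1.22 in Salam, with a difference of 1.12 (SE 0.52, adjusted p = 0.870). The other eif3m.S probe set gave -0.32 (SE 0.50), so the higher value of Drago was seen on 1 of 2.

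Cap recognition and unwinding is the work of eIF4E, which binds the cap, eIF4G, the scaffold, and eIF4A, the helicase that eif4b and eif4h stimulate. The 16 probe sets of this class split evenly, 8 above 0 and 8 below, with a median of 0.07 and none at an unadjusted p under 0.05. The ends of the range were eif4g3 at 1.55 (SE 0.90) and eif4e3.L at -1.43 (SE 1.06), and the arrays of both overlapped between the groups. The helicase eif4a1.S (Xl.4224.1.S1_a_at) was at 0.48, 0.19 and 0.17 in Drago and at -0.34, -0.19 and -0.29 in Salam. These tight groups did not overlap, yet the difference of 0.55 (SE 0.50, adjusted p = 0.968) was close to its SE. That SE draws on the spread of all 5 groups and on limma's prior. The SD was 0.17 in Drago and 0.07 in Salam but 0.85 in Cont. The second probe set of eif4a1.S gave -0.61 (SE 0.60).

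Of the regulators of initiation, the eIF4E inhibitor eif4ebp2.S differed by -0.16 (SE 0.77) and eif4enif1.L, an eIF4E-binding transport protein, by -0.13 (SE 0.89). The eIF2 kinases eif2ak1.L (heme-regulated in mammals) and eif2ak2.L (activated by double-stranded RNA) differed by -0.81 (SE 0.54) and -0.61 (SE 0.70). The helicase eif4a3.1.S, a core protein of the exon junction complex, differed by -0.24 (SE 0.51). The poly(A)-binding proteins, which bridge the tail of the messenger RNA to eIF4G, ran from -0.70 (SE 0.82) for pabpc4.L to 0.75 (SE 0.75) for pabpc1.L. In none of these classes did a probe set reach an unadjusted p under 0.05.

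eIF5A, a factor with the modified amino acid hypusine that helps the ribosome through difficult peptide bonds, gave the largest difference of all 123. Probe set Xl.8902.2.S2_at of eif5a.L was at 1.10, 0.08 and 1.39 in Drago and at -3.30, -2.22 and -2.19 in Salam, with Cont at -0.55 and 0.13. The 3 Salam arrays were the lowest of the 14. The difference was 3.43 (SE 0.76, unadjusted p = 0.000457, adjusted p = 0.530), or 10.8 fold. The other 4 probe sets of eif5a.L did not share it: they gave 0.63 (SE 0.59), -0.17 (SE 0.51), -1.42 (SE 0.80) and -1.55 (SE 0.73). Over the 14 arrays Xl.8902.2.S2_at correlated with these 4 at r from -0.445 to -0.00138. The 60S subunit factor eif6.S differed by 0.29 (SE 0.54).

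The elongation class was set by the eef symbol alone, so not all of its 19 probe sets of 10 genes read elongation factors. It holds 2 methyltransferases of eEF1A (eef1akmt1.S and eef1aknmt.S) and eef1e1.L. In this class 8 differences were above 0 and 11 below, with a median of -0.07. The carrier of charged tRNA, eef1a1.S, was at 0.83, 0.41 and 0.55 in Drago and at -1.45, -1.71 and 0.37 in Salam on Xl.17432.1.S2_at. Salam replicate 3 lay within 0.0320 of the lowest Drago array while the other Salam arrays lay far below. The difference was 1.52 (SE 0.59, adjusted p = 0.850). Probe set Xl.17432.1.S1_at of the same symbol, the steadiest of all 123 with an SD of 0.21 within groups, differed by 0.11 (SE 0.46). The oocyte form eef1a1o.S gave the lowest difference of the class, -1.20 (SE 0.87). The subunits of the eEF1 exchange factor (eef1b2, eef1d and eef1g) ran from -1.05 to 0.45, and the 3 probe sets of the translocase eef2.1.L gave 0.12, -0.15 and -0.20 (SE 0.49 to 0.52).

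The release factor etf1.S, which reads the stop codon, differed by 0.03 (SE 0.66) between the predators, and its GTPase partner gspt1.L by -0.26 (SE 0.47). The gspt1.L arrays were steady (SD 0.28 within groups) and did not overlap, by 0.00656.

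The synthetases classed as cytosolic by symbol alone (32 probe sets of 16 genes) had 16 differences above 0 and 16 below. The lysyl-tRNA synthetase kars1.L had the smallest p of the 123. It was at 1.05, 1.78 and 1.11 in Drago and at -2.42, -1.78 and -1.79 in Salam, with Cont at 0.00 and 1.35. The groups were tight and 2.82 units apart. The difference was 3.30 (SE 0.64, unadjusted p = 0.000123, adjusted p = 0.530), or 9.88 fold. Among the arrays with high dap, 2 of each group, it was 3.51. Between those with low dap, 1 of each group, it was 2.89. With the groups 2.82 units apart, neither value could fall below that gap. The probe sets of kars1.S gave -0.47 (SE 0.57, Xl.23293.1.S1_at) and -0.33 (SE 0.72, Xl.6043.1.S1_s_at). The latter shares the cluster number 6043.1 in its name with the kars1.L probe set, Xl.6043.1.S1_at, but not its difference.

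The alanyl-tRNA synthetase aars1.L was at -0.15, -0.72 and 2.86 in Drago and at -0.36, -1.94 and -0.91 in Salam. The groups overlapped, and Drago replicate 3 alone was high. The difference of 1.74 (SE 0.81, adjusted p = 0.870) became 0.64 without that array. It was 0.72 among the high-dap arrays against 3.77 between the low-dap arrays, 1 of each group. The low-dap Drago array is replicate 3 itself, so this split cannot separate dap from that 1 array. The glycyl-tRNA synthetase lay on the other side: gars1.S (Xl.23124.1.A1_at) was at -0.12, -0.93 and -0.33 in Drago and at 0.12, 1.86 and 2.48 in Salam (-1.95, SE 0.90, adjusted p = 0.865). For gars1.L Drago was at -0.39, -0.70 and -1.25 and Salam at 0.16, 0.05 and 0.50 (-1.02, SE 0.48, adjusted p = 0.870). In both, the arrays did not overlap. The other 3 gars1.S probe sets gave -0.32, -0.44 and 0.34. The 5 mitochondrial synthetases ran from -0.70 (SE 0.54) for mars2.L to 1.12 (SE 0.56) for rars2.S, with 4 above 0 and none at an unadjusted p under 0.05.

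**Figure D2:**
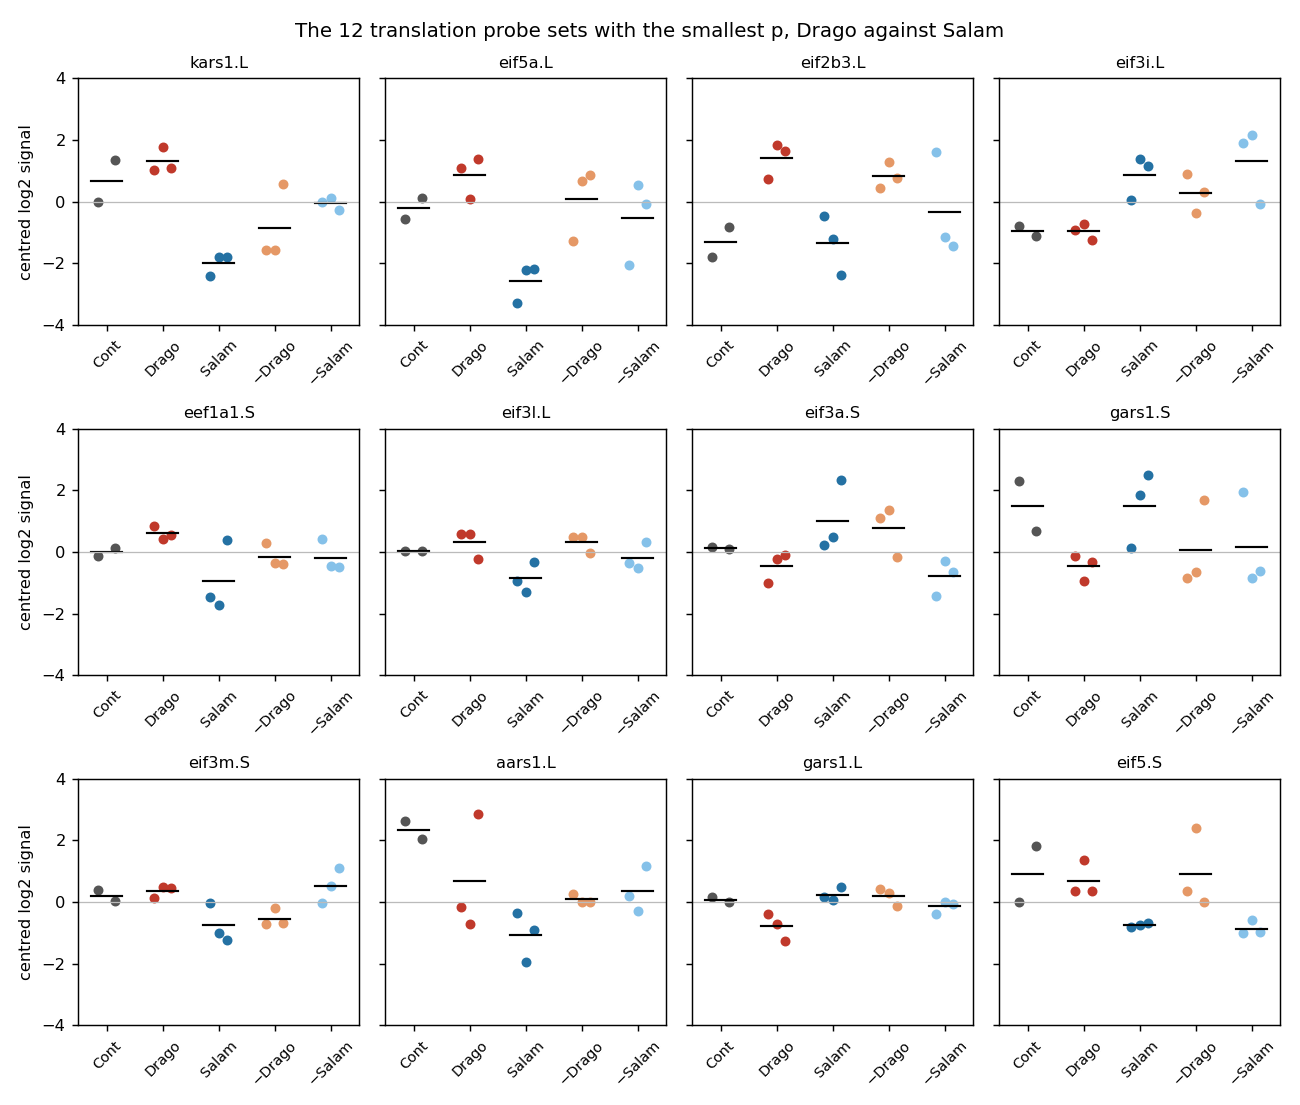
Centred log2 signal (vertical axis) of the 12 translation probe sets with the smallest p between Drago and Salam, in each array of the 5 groups; points are arrays and bars are group means. The arrays of kars1.L and eif5a.L are widely apart between Drago and Salam, while the aars1.L mean of Drago rests on 1 array at 2.86.

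Probe sets of the same gene often lay on both sides of 0. Of 29 genes with more than 1 probe set, the .L and .S copies counted as 1 gene, 7 had all of them on 1 side of 0 and 22 had them on both. The quartiles of the 123 differences, -0.54 and 0.42, lay within the median SE of 0.70, so many of these signs are uncertain. The share over all genes is not given here. Whether more genes lay on both sides than random signs would give was not tested. In 6 genes (eif3a, eif5, eif5a, gars1, kars1 and yars1) the probe sets lay more than 2 units apart with opposite signs. Within a symbol, 50 pairs of probe sets correlated over the 14 arrays at a median r of 0.0544 and 3 pairs passed 0.5, while 2712 such pairs over all symbols had a median of 0.00501, with 4.02% above 0.5. The closest pair was Xl.13160.1.A1_at and Xl.13160.1.A1_x_at of the tyrosyl-tRNA synthetase yars1.S, at r = 0.735. Their differences were 0.41 (SE 0.71) and 0.97 (SE 1.11), and the third yars1.S probe set gave -1.85 (SE 0.89). Which Rana pirica transcripts each probe set reads was not tested.

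**Figure D3:**
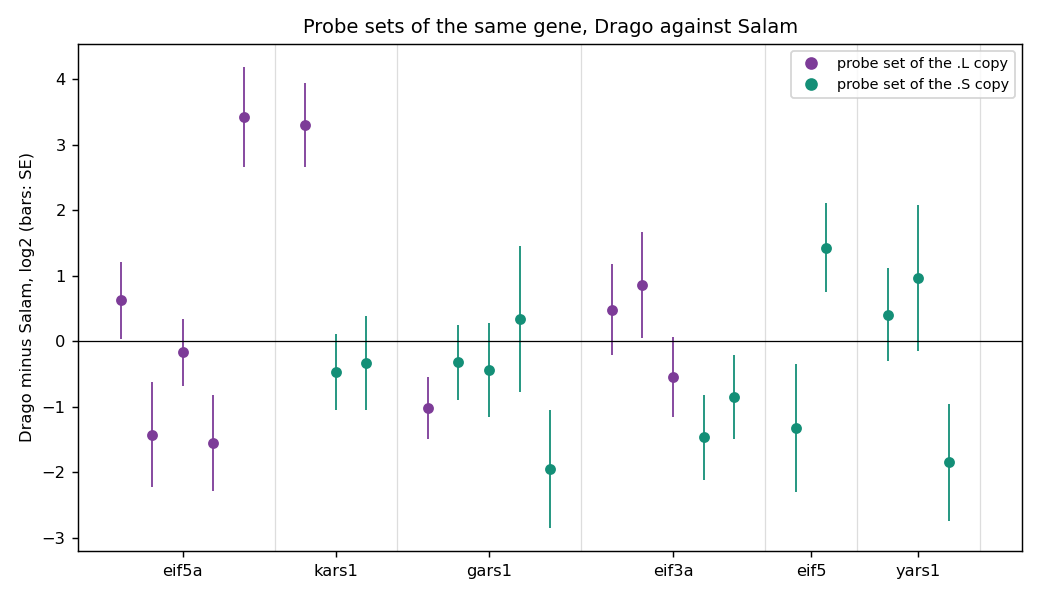
Drago minus Salam on the log2 scale, with the SE as bars, for every probe set of the 6 genes whose probe sets lay more than 2 units apart with opposite signs. Colors mark the .L and .S copies of Xenopus laevis; the point at 3.43 for eif5a stands above 4 others between -1.55 and 0.63.

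The translation probe sets varied somewhat less between arrays of a group than the others on the array. The median SD within groups was 0.86 over the 123 and 0.98 over all probe sets tested, and 27 of the 123 (22.0%) had an SD under 0.5, against 10.1% of all. These 27, which were singled out by their values and belong to 21 genes, included 9 of 21 eIF3 and 7 of 19 elongation probe sets but 1 of 32 of the cytosolic synthetases. After eef1a1.S the steadiest were gspt1.L (SD 0.28), gars1.L (0.29) and the muscle and nerve form eef1a2.S (0.31), for which the Drago minus Salam difference was 0.05, with an interval from -0.98 to 1.08. The widest were gars1.S (Xl.22015.2.S1_at, 1.60) and yars1.S (Xl.13160.1.A1_x_at, 1.59). Probe sets of different eIF3 subunits correlated at a median r of 0.0160 over the 14 arrays, and translation probe sets of different genes at -0.00697, but probe sets of the same symbol, at a median of 0.0544, were scarcely more alike.

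**Figure D4:**
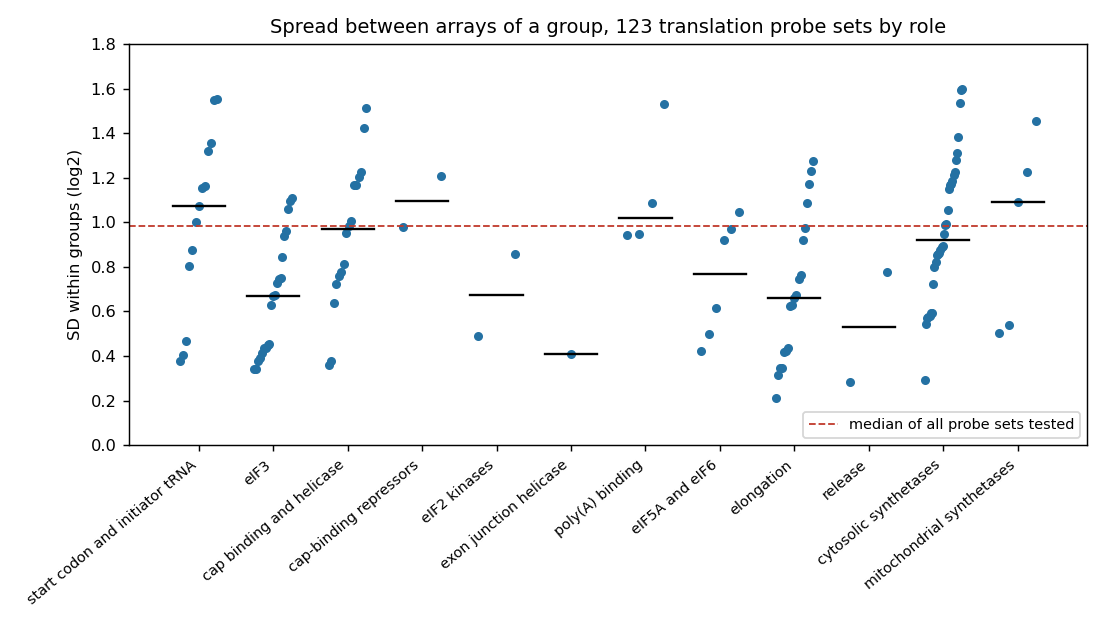
SD between arrays of the same group (vertical axis, log2, pooled over the 5 groups) of the 123 translation probe sets by role; black bars are class medians and the dashed line is the median of all probe sets tested, 0.98. eIF3 and elongation probe sets had class medians of 0.67 and 0.66, below the line.

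Over the 5 groups together, limma's F test called 0 of the 123 and 0% of all probe sets at an adjusted p under 0.05, and 7 (5.69%) beside 5.86% of all at an unadjusted p under 0.05. The smallest p of limma were those of kars1.L (adjusted p = 0.594), eif5a.L (Xl.8902.2.S2_at, adjusted p = 0.704), eif2b3.L and eif3i.L (adjusted p = 0.730 for both).

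Against Cont, none of the 4 predator groups had a translation probe set at an adjusted p under 0.05, and none had any probe set on the array (0% for Drago, 0% for Salam, 0% for −Drago and 0% for −Salam). The 4 comparisons share the 2 Cont arrays, so a value that stands out in Cont enters all of them. In Drago 5 of the 123 were at an unadjusted p under 0.05 (3 higher, 2 lower, beside 5.65% of all), and 1 was over 5 fold (2.03% of all). In Salam the counts were 9 (4 higher, 5 lower, beside 5%) and 3 (all lower, beside 1.93%), in −Drago 8 (4 and 4, beside 4.94%) and 2 (beside 1.68%), and in −Salam 5 (3 and 2, beside 5.69%) and 1 (beside 2.01%). At an unadjusted p under 0.05 the shares of the 123 were 7.32% in Salam, 6.5% in −Drago and 4.07% in Drago and in −Salam. These counts rested on few arrays: 5 in Drago became 10 without Cont replicate 2, 8 in −Drago became 4 without Cont replicate 1 or −Drago replicate 2, and 5 in −Salam became 9 without −Salam replicate 2. The shares of all probe sets without those arrays are not given here, and whether the whole array moved likewise was not tested.

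The release factor etf1.S stood out in Cont, at -1.96 and -1.54, while the 12 arrays of the predator groups ran from -0.87 (Drago replicate 3) to 1.32 (Salam replicate 1). Both Cont arrays lay below all others. Drago was 2.10 above Cont (limma adjusted p = 0.808), Salam 2.07 (adjusted p = 0.862), −Drago 2.25 (adjusted p = 0.953) and −Salam 1.71 (adjusted p = 0.870), all with an SE of 0.74. The aars1.L probe set lay at the other end, at 2.64 and 2.03 in Cont and between -1.94 and 1.17 in Salam, −Salam and −Drago, with differences of -3.41, -1.98 and -2.25 (SE 0.90). Only Drago replicate 3, at 2.86, reached the Cont level. In Salam, kars1.L was also over 5 fold below Cont (-2.67, SE 0.71, adjusted p = 0.728), as was eif5a.L (Xl.8902.2.S2_at; -2.36, SE 0.85, adjusted p = 0.862).

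The eif3a.L probe set Xl.3189.2.A1_at, of the scaffold subunit, was at -1.55 and -1.81 in Cont, at 1.47, 0.30 and -0.13 in −Salam and at -1.09, 0.76 and 0.61 in −Drago. All these arrays lay above Cont, with differences of 2.23 (SE 0.69, adjusted p = 0.710) and 1.77 (SE 0.69, adjusted p = 0.959). On the same probe set Salam also lay above Cont, by 1.81 (SE 0.69, limma adjusted p = 0.874). The other eif3a.L probe sets gave -0.39 and 0.61 in −Salam and -0.59 and 0.65 in −Drago, closer to 0. In Salam the cap-binding protein eif4e2.L (Xl.19394.1.S1_at), a repressor of cap-dependent initiation in mammals, was at -0.69, -0.69 and -0.56 against 1.53 and 1.34 in Cont (-2.08, SE 0.74, adjusted p = 0.862). The second eif4e2.L probe set differed by 0.01.

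In −Drago the lowest difference from Cont was that of eif2s2.S (-2.82, SE 0.97, adjusted p = 0.959), at -0.39, -0.31 and -1.55 against 3.07 and 1.06. It was -1.82 without Cont replicate 1. The highest was eef1a1o.S, at 2.27, 1.52 and 2.0 against -0.35 and -1.04 (2.63, SE 0.97, adjusted p = 0.959). In both the groups did not overlap. The −Drago arrays all had low dap values, and with dap as a covariate the differences were -3.05 for eif2s2.S and 2.30 for eef1a1o.S. In −Salam the probe set over 5 fold was eif2s2.L, at 2.40 above Cont. It did not reach an unadjusted p of limma under 0.05, and its SD within groups was wide, at 1.55.

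In Drago the largest difference from Cont was that of eif2b3.L (2.73, SE 0.87, adjusted p = 0.801), whose arrays are given above and did not overlap. In −Drago eif2b3.L also lay above Cont, by 2.15 (SE 0.87, limma adjusted p = 0.959). The alpha subunit of eIF2, eif2s1.S, was at -0.06, -0.83 and -0.74 in Drago against 0.65 and 0.96 in Cont (-1.35, SE 0.56, adjusted p = 0.839), again without overlap. For eif5a.L (Xl.8902.2.S1_at) Drago was at -2.10, 0.52 and -2.20 and Cont at 0.87 and 0.50 (-1.95, SE 0.82, adjusted p = 0.848), and Drago replicate 2 lay within Cont. In −Salam, eif3i.L was at 1.90, 2.18 and -0.06, above both Cont arrays (2.29, SE 0.73, adjusted p = 0.750). On eif5.S (Xl.11588.1.S2_at) −Salam was at -1.02, -0.59 and -0.98 against 0.01 and 1.82 in Cont, and the difference of -1.78 (SE 0.76, adjusted p = 0.870) became -0.88 without Cont replicate 2.

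**Figure D5:**
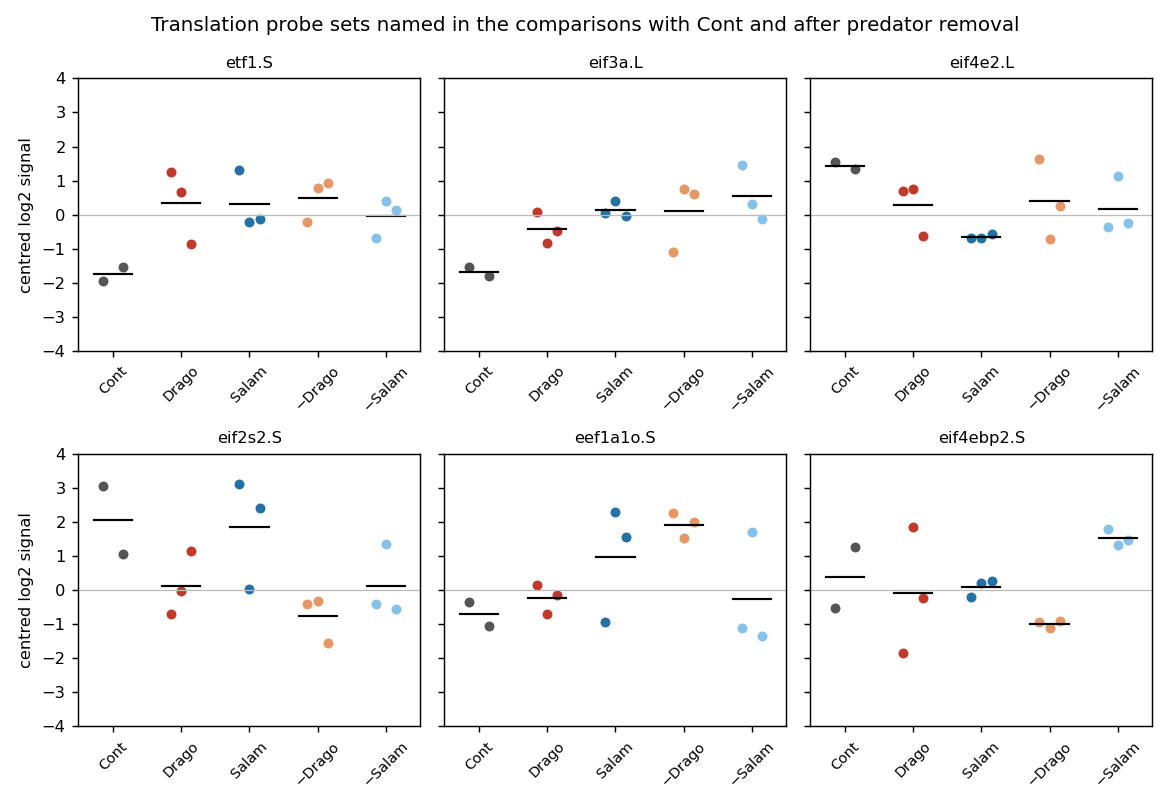
Centred log2 signal (vertical axis) of 6 translation probe sets in each array of the 5 groups; points are arrays and bars are group means. In etf1.S and eif3a.L the 2 Cont arrays are the lowest of the 14, and in eif4ebp2.S the 3 −Drago arrays lie between -1.10 and -0.92 and the 3 −Salam arrays between 1.34 and 1.79.

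Predator kept and predator removed were set against each other in 2 comparisons. The groups were different tadpoles, all sampled on day 8. A shorter exposure (4 against 8 days) and the 4 days without the predator cannot be told apart. Again no translation probe set and no other was called (0% for Drago against −Drago and 0% for Salam against −Salam). At an unadjusted p under 0.05 there were 5 of the 123 in each, 2 higher and 3 lower with the predator kept, beside 5.74% of all for the dragonfly and 5.49% for the salamander. The kars1.L probe set was named in both. Its −Drago arrays, at -1.58, -1.57 and 0.57, lay below the Drago arrays (2.17, SE 0.64, adjusted p = 0.707), and its −Salam arrays, at 0.00, 0.13 and -0.28, lay above the Salam arrays (-1.94, SE 0.64, adjusted p = 0.789). None of the −Salam arrays reached the Drago arrays. For eif5a.L (Xl.8902.2.S2_at) −Salam was at -2.05, 0.54 and -0.08, above the Salam arrays (-2.04, SE 0.76, adjusted p = 0.888).

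In −Drago, eef1g.S, a subunit of the eEF1 exchange factor, was at 0.98, 1.64 and 0.73 against -0.29, -2.22 and -0.75 in Drago (Drago minus −Drago -2.20, SE 0.82, adjusted p = 0.821). Another subunit, eef1b2.L (Xl.1168.1.S1_at), also lay lower in Drago, at -2.02, -0.42 and -0.22 against 0.67, 0.97 and 0.56 (-1.62, SE 0.59, adjusted p = 0.813). The groups did not overlap in either. The latter became -1.23 with dap as a covariate and -1.06 without Drago replicate 1. On the eIF3 subunit eif3c.S (Xl.7935.1.S2_a_at) Drago was the higher, by 1.38 (SE 0.53, adjusted p = 0.822). Of the other probe sets of these subunits, those of eef1g.L differed by 0.85 and -0.08 and the second of eef1b2.L by -0.40. In −Salam, both probe sets of eif3a.S had a lower mean than in Salam, by 1.81 for Xl.24093.1.A1_at (SE 0.65, adjusted p = 0.881) and 1.87 for Xl.24093.1.A1_x_at (SE 0.64, adjusted p = 0.849). Without Salam replicate 3 the first was 1.16, and without Salam replicate 1 the second was 1.25 and the first 2.20. Over the 14 arrays the pair correlated at r = 0.262.

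Between the removal groups, no probe set was called (0% of all), and 5 of the 123 (3 higher and 2 lower in −Drago) were at an unadjusted p under 0.05, beside 5.4% of all. The eIF4E inhibitor eif4ebp2.S had the smallest p: it was at -0.94, -1.10 and -0.92 in −Drago and at 1.79, 1.34 and 1.47 in −Salam. Both groups were tight and lay on either side of the Cont arrays, at -0.51 and 1.27. The difference was -2.52 (SE 0.77, unadjusted p = 0.00522, adjusted p = 0.799). With the predators kept, its lowest and highest arrays were -1.83 and 1.85 for Drago, and -0.20 and 0.28 for Salam. The other 3 with the smallest p were eif5.S (Xl.11588.1.S2_at, 1.78, SE 0.68, and 1.03 without −Drago replicate 2), eef1a1o.S (2.18, SE 0.87) and eif3a.S (Xl.24093.1.A1_at, 1.56, SE 0.65).

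Other genes of translation and its control, listed apart from the rule, were read in the same way. Of 43 genes, 23 were measured by 43 probe sets, of which 2 were higher and 1 lower in Drago than in Salam at an unadjusted p under 0.05 (5.71% of all probe sets) and 0 at an adjusted p under 0.05. The 2 were gcn1.L, the partner that activates the eIF2 kinase of amino acid shortage (Xl.6112.1.A1_at, 2.38, SE 0.77), and paip1.S, which binds the poly(A)-binding protein (1.82, SE 0.67). The lower was mknk1.S, a kinase of eIF4E (Xl.11295.1.A1_at, -1.69, SE 0.74). The other gcn1.L probe sets gave 0.26 and 0.20 and the other mknk1.S probe set -0.39. The median over the 43 was 0.07. By list it was -0.20 for the control of initiation (14 probe sets), 0.26 for the stress branch of eIF2 (7), 0.27 for accessory and mitochondrial factors (13) and 0.05 for the synthetase complex, hypusine and tRNA genes (9).

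Markers of other tissues in the tail were read from 8 lists, with 0 probe sets at an adjusted p under 0.05. Of these lists, that of notochord and cartilage (6 probe sets) had 2 higher in Drago than in Salam at an unadjusted p under 0.05. The other lists had 0 or 1 in either direction, and 5.71% of all probe sets passed this threshold. Its mean over the list was 0.05 to 0.73 on the Drago arrays, -0.36 to 0.24 on those of Salam and -0.40 to -0.32 on those of Cont. The mean of the 2 endothelial probe sets lay between -1.70 and -1.10 on the −Salam arrays, below that on the arrays of all other groups. The mean of the erythrocyte list lay between 0.12 and 0.58 on the Cont arrays. It was lower in both Drago (-0.64 to -0.11) and Salam (-0.64 to 0.01). In −Drago it ran from -0.83 to 0.20 and in −Salam from -0.64 to 0.40. The mean of the fibroblast list lay the other way in Drago, at 0.01 to 0.12 against -0.498 to -0.182 in Cont. The ranges of Salam (-0.183 to 0.46), −Drago (-0.48 to 0.000601) and −Salam (-0.25 to -0.02) overlapped that of Cont, in Salam only just. In the lists of skeletal muscle, epidermis, nervous tissue and white blood cells, the ranges of Drago and Salam both overlapped that of Cont. Between Drago and Salam the ranges overlapped in all 8 lists. The part of these differences in the values of the translation genes was not tested.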

How the data were processed

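RNA of tail tissue was hybridized to Xenopus laevis genome arrays, 14 in all. Per the methods, the authors read scans into GCOS and used GeneSpring for MAS5 signals, with the baseline of each probe set set to the median of all samples; GCOS and MAS5 also stand in the submitters' processing notes. The deposited values are log2 and have lost the signal level, so no filter on low signals and no pseudocount applied. A control array that the authors left out for failed hybridization was not analysed here.

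The 15491 probe sets left after removal of 120 control probe sets were fitted with limma 3.58.1 (R 4.3.3), with 1 mean per group, 9 residual and 5.53 prior degrees of freedom. Each of 8 comparisons and the F test was adjusted on its own by Benjamini-Hochberg, with a threshold of 0.05. The number of arrays limits the precision. The genes were taken from a platform annotation that gives 1 symbol for 9304 probe sets, several for 195 and none for 5992. The fit was tested on simulated data.

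Genes were named for the 12 smallest p between Drago and Salam, the 4 smallest in each other comparison and the F test, the ends of each role and the genes whose probe sets differed in sign by over 2 units; the values of others, such as the further subunits, the second probe sets of a gene and the steadiest and widest probe sets, had been seen when they were chosen. The genes, lists, tests and rules were chosen with earlier results of these data known. The alternatives were quantile normalization, centring on array medians, a replicate block, dap as a covariate, only the arrays compared and a robust variance model. Further alternatives were an ordinary test, a narrower list, means per gene and leaving out each array. The ordinary test was a t test on only the arrays compared, and over the 5 groups the one-way test that the methods name.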

Additional observations from a re-analysis of the deposited data

Results flagged for a closer look

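In 2 probe sets, all arrays of 1 predator group lay above both Cont arrays and all arrays of the other below them, 1 of the 123 (0.813%) in either pair of groups. Over all 15491 probe sets this held for 56 (0.362%) between Drago and Salam and for 74 (0.478%) between −Drago and −Salam. For eif3a.S (Xl.24093.1.A1_at) the Salam arrays were the higher and Drago minus Salam was -1.47 (SE 0.65, limma adjusted p = 0.865). For eif4ebp2.S the −Salam arrays were the higher and −Drago minus −Salam was -2.52 (SE 0.77, limma adjusted p = 0.799). Neither passed the adjustment over all probe sets.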

How the results depend on the processing

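The count of translation probe sets at an adjusted p under 0.05 was 0 in all comparisons and under all alternatives run, and the smallest adjusted p was 0.214 (ordinary test). Between Drago and Salam, 10 were at an unadjusted p of limma under 0.05 (8.13%, beside 5.71% of all). With only the arrays compared there were 6 (4.88%, beside 5.59%), but the ordinary test on those same arrays gave 12 (9.76%, beside 4.89%). Centring on array medians gave 11 (8.94%, beside 5.72%). Leaving out 1 array gave 6 (4.88%, beside 5.45%, without Salam replicate 2) to 12 (9.76%, beside 5.38%, without Salam replicate 1). The median difference of -0.07 became -0.0258 without kinases, repressors and methyltransferases (117 probe sets), and ran from -0.12 (without Salam replicate 2) to 0.00481 (without Drago replicate 2). The single call over all probe sets between Drago and Salam was lost with only the arrays compared, with the replicate block and without any 1 of the 6 arrays compared. Counts at an unadjusted p under 0.05 also moved: 5 in Drago against Cont became 10 without Cont replicate 2, 8 in −Drago became 4 without Cont replicate 1 or −Drago replicate 2, and 5 in −Salam became 9 without −Salam replicate 2. In Drago against −Drago, 5 became 14 with the ordinary test, 9 with only the arrays compared or without Drago replicate 1 and 8 without Drago replicate 3. In Salam against −Salam, 5 became 8 without Salam replicate 2 and 9 without −Salam replicate 1 or 2. In −Drago against −Salam, 5 became 8 with the ordinary test or without −Salam replicate 2 and 3 without −Drago replicate 1 or 2. The ordinary one-way test at the level of the methods called 10 probe sets and 0 of the 123, of which 10 were at an unadjusted p under 0.05 and 0 after Benjamini-Hochberg. Outside Drago against Salam, the shares of all probe sets under these alternatives are not given here. Whether those counts moved with the whole array was not tested.

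Of the values of named probe sets under the alternatives, 1493 kept their sign and side of the threshold. A further 19 changed sign, all in Drago against Salam, in differences from -0.70 (pabpc4.L) to 0.48 (eif3a.L, Xl.15128.1.S1_at). The tally cannot measure stability. The choice of test, the replicate block and leaving out an array of another group cannot change the Drago minus Salam difference. Most named probe sets were also picked for a small p or a large difference. With quantile normalization etf1.S was at -0.0397. Leaving out 1 array gave -0.42 to 0.65 for etf1.S, -1.12 to 0.72 for eif4ebp2.S, -0.93 to 0.59 for eif4enif1.L, -0.45 to 0.0317 for eif4a3.1.S, -1.26 to 0.10 for pabpc4.L, -0.0754 to 0.82 for eif3a.L (Xl.15128.1.S1_at), -0.40 to 0.12 for eif5a.L (Xl.8902.2.S1_a_at), -0.34 to 1.68 for gars1.S (Xl.22015.2.S1_at) and -0.78 to 0.16 for kars1.S (Xl.6043.1.S1_s_at). The cause was not tested. For kars1.L and eif5a.L (Xl.8902.2.S2_at), named for their small p, the range was 3.07 to 3.44 and 3.06 to 3.82. Their groups lay 2.82 and 2.26 units apart, so leaving out 1 array could not bring the difference below those gaps.

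Arrays of the same number did not deviate together (r from -0.0194 to 0.0161 over 26 pairs, 0 over 0.1). With the replicate number as a block, 10 translation probe sets (8.13%, beside 5.63% of all) were at an unadjusted p under 0.05 between Drago and Salam and 0 were called.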
